A study of Xenopus laevis with 3 samples.

Results

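Dorsal tissue of *Xenopus laevis* gastrulae that had received *Fry-MO*, a morpholino that blocks translation of *fry*, was compared with that of uninjected embryos by sequencing of small RNA. The members are the 93 listed sequences that carry a *Xenopus* name and reached 10 raw reads in either library, out of 175 sequences with a *Xenopus* name and 1985 listed sequences in all. In the *Fry-MO* group 20 ng of the morpholino went into the dorsal blastomeres of embryos of 4 cells, together with rhodamine dextran, and embryos that glowed red dorsally were taken. The uninjected embryos had no injection and no such selection. The labels give no genotype or strain. In both groups embryos were grown to stage 10.5, the early gastrula, when 30 dorsal explants from 3 experiments were pooled into 1 library. Another library, of embryos given 400 pg of *Lhx1-AS*, is not used here. With 1 library a side there is no spread between replicates and no p-value. No library came from embryos injected with a control morpholino, so depletion of Fry, injection and selection cannot be told apart, and small RNA does not show the level of *fry* itself. The pooled tissue also does not separate the number of cells of a type from the amount of miRNA in each cell.

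MicroRNAs are short RNAs cut from the arms of a hairpin precursor, which leave from its 5p or its 3p side, and they lower the output of mRNAs that pair with their seed, the bases 2 to 8. Members of a family share the seed, and hence most of their targets, while coming from different genes. At the blastula and gastrula stages of *Xenopus* the best known miRNA is miR-427, made in large amounts once the zygotic genome is switched on, which sends maternal mRNAs to decay, while the miR-15 and miR-16 family is known to limit a Nodal receptor on the ventral side of the gastrula. Furry, the protein of *fry*, is a large scaffold protein that was described in *Xenopus* as a repressor of miRNA expression, and the comparison asks which mature miRNAs differ when its translation is blocked.

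Sequences are shown first for the 4 seeds with a member at least 2-fold higher with *Fry-MO* and another at a ratio under 1, since their members differed in direction. The order of the ratios within a family does not depend on how the libraries are scaled, but the side of 1 on which a member lies does. They are printed as the deposited table lists them, in DNA letters from 5′ to 3′, with the seed in capitals. Names are those of the matched *X. laevis* or *X. tropicalis* entry, and most of the 93 (79) carry an *X. tropicalis* name. The 5 sequences with the miR-15/16 seed differed most, as miR-15a was higher in the *Fry-MO* library and the other 4 had ratios under 1.
miR-15a: tAGCAGCAcataatggtttgt
miR-15b: tAGCAGCAcatcatgatttgc
miR-15c: tAGCAGCAcatcatggtttgta
miR-16b: tAGCAGCAcgtaaatattgggt
miR-16c: tAGCAGCAcgtaaatactggag

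The mir-125 seed, that of the heterochronic lin-4 of *Caenorhabditis elegans*, was split between miR-125b, which was higher, and miR-125a, which was lower.
miR-125a: tCCCTGAGacccttaacctgtga
miR-125b: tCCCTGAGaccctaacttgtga

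Among the 3 sequences with the seed of miR-25, which come from precursors related to the mir-17-92 cluster, miR-25 was higher and miR-363-3p lower.
miR-25: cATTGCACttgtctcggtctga
miR-92a: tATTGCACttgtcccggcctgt
miR-363-3p: aATTGCACggtatccatctgtaa

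Of the 4 sequences with the seed of miR-17, miR-17-5p and miR-20a-5p were higher and miR-20 had a ratio under 1.
miR-17-5p: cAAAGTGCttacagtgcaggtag
miR-20: cAAAGTGCtcatagtgcaggtag
miR-20a-5p: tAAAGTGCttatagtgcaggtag
miR-93a: cAAAGTGCtgttcgtgcaggt

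The early embryo miRNAs miR-427 and miR-428 share another seed, offset by a base from that of miR-17, and both had ratios under 1.
miR-427: aAAGTGCTtcctgttttgggcgt
miR-428: tAAGTGCTctctagttcggttgct

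With the authors' normalization most members were higher in the *Fry-MO* library. A member is called higher where its normalized count there, the raw reads divided by the authors' size parameter of the library, was at least 2 times that of the uninjected library, lower where it was at most 0.5 times, and each ratio is given with the exact (Clopper-Pearson) 95% interval that follows from the raw reads, which covers counting error only. Of the 93, 64 were higher (68.8%) and 9 were lower (9.68%). Among all 312 listed sequences with as many reads, 57.4% were higher and 23.7% lower. These 312 include 51 predicted sequences without a species name, of which 0 were higher and 38 lower. Of the 168 with a name of another species, 115 were higher and 27 lower. The lower share of higher sequences among the 312 thus comes with the predicted ones. All predicted sequences held 54.0% of the listed reads without injection and 19.2% with *Fry-MO*. The counting interval lay above 1 for 60 of the 64 and below 1 for each of the 9. Of the 20 members in between, 8 had a ratio over 1 and 12 a ratio under 1, and the interval lay above 1 for 4 and below 1 for 3 of these 20. The median log2 ratio was 2.01. Of the 93, 70 had at least 10 reads in both libraries, and 44 of these were higher and 9 lower. Another 22 reached 10 reads in the *Fry-MO* library alone, so that they could hardly be other than high there, and 20 of them were higher. The 125.5 raw reads without injection and the 171.33 with *Fry-MO* in the 82 *Xenopus*-named sequences under the minimum made up 0.223% and 0.267% of the *Xenopus*-named reads. Listed sequences took 133893.56 reads of the uninjected and 108040.51 of the *Fry-MO* library.

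**Figure D1:**
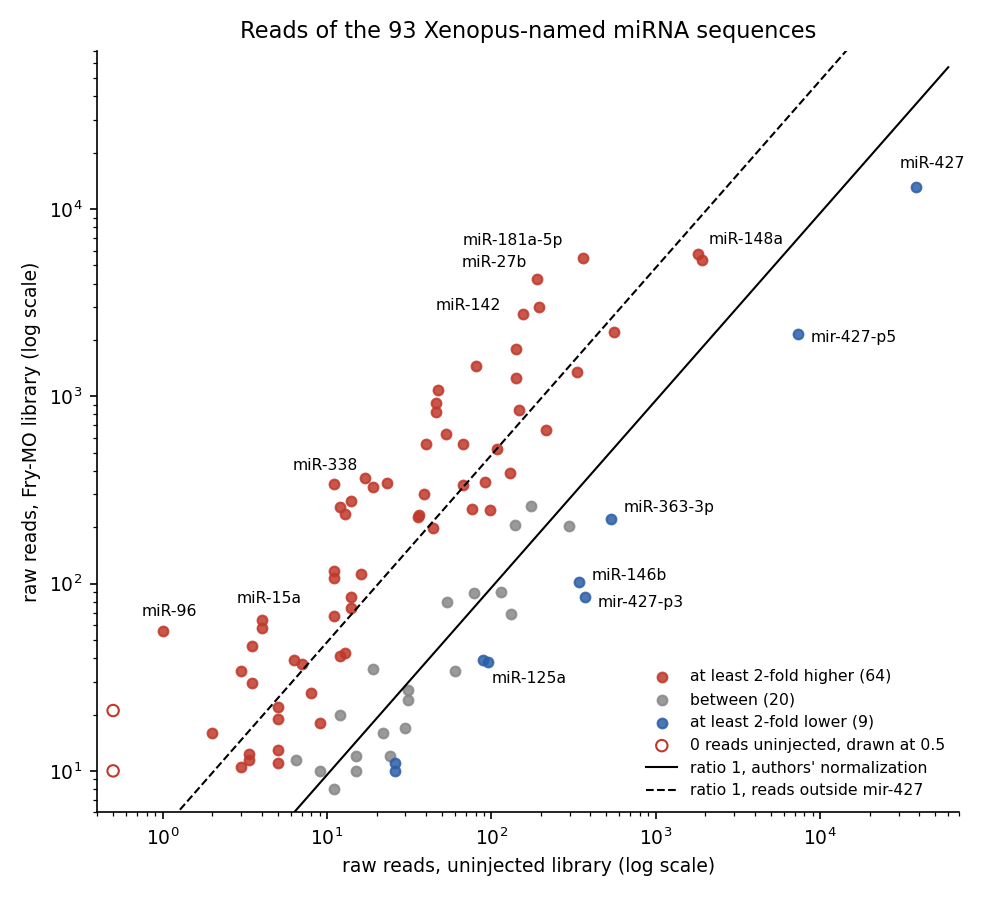
Raw reads of each of the 93 sequences in the uninjected library (x axis, log scale) and in the Fry-MO library (y axis, log scale), coloured by call. The solid line marks a ratio of 1 with the authors' normalization and the dashed line a ratio of 1 when reads outside the mir-427 products are scaled to be equal. The cloud of red points lies above the solid line and is cut through by the dashed one, with 64 sequences higher than the solid line by at least 2-fold and 24 higher than the dashed line by as much.

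This count depends on how the libraries are scaled. The products of a single precursor held most of the *Xenopus*-named reads of the uninjected library and far fewer of the other. The 3 products of mir-427 had 46163 of 56203.83 *Xenopus*-named reads there, or 82.1% (interval 81.8 to 82.5), and 15328 of 64202 in the *Fry-MO* library, or 23.9% (23.5 to 24.2). As a share of all listed reads they went from 34.5% to 14.2%. The remaining *Xenopus*-named reads went from 10040.83 to 48874, which is 4.87-fold as many raw reads. If those are set equal, every ratio is divided by 5.11, which takes 2.35 off each log2 ratio. Then 24 members were higher (25.8%) and 31 lower (33.3%), against 31.4% and 43.9% of all listed sequences, and the median log2 ratio was -0.34. Of the 51 predicted sequences 0 were then higher and 51 lower, and of the 168 with a name of another species 74 were higher and 55 lower. The interval lay above 1 for 27, below 1 for 36 and held 1 for 30. Of the 64 members called higher with the authors' values, 24 were still called higher, 38 were in between and 2 lower, and 22 with reads in both libraries had moved to a ratio under 1. The 9 lower members stayed lower, which had to follow from dividing every ratio by 5.11. Which of the scalings is nearer to the amount of miRNA per embryo cannot be told from these files, so results that are free of it, which are ranks, shares within a family and shares within a precursor, are given beside the ratios.

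The 9 lower members came from 6 families, and 3 of them from mir-427. MiR-427 itself had 38438 raw reads without injection and 13081 with *Fry-MO*, at a ratio of 0.357 (0.350 to 0.364), and was the most read *Xenopus*-named sequence of both. The product of the other arm, mir-427-p5, had 7356 and 2162 reads and a ratio of 0.309 (0.294 to 0.324). The small product mir-427-p3 had 369 and 85 reads and a ratio of 0.242 (0.189 to 0.307), the lowest of the 93. The 3 products thus were all lower, and the 2 minor ones by more than miR-427, as the ratio of mir-427-p5 was 0.864 times (0.820 to 0.910) and that of mir-427-p3 0.677 times (0.528 to 0.860) as large. MiR-428, a relative with the same seed, had 31 and 27 reads. Its ratio of 0.914 (0.525 to 1.58) held 1, and relative to miR-427 it was 2.56 times as high (1.47 to 4.43). The last early embryo sequence, mir-302-p5, from the precursor family known from pluripotent stem cells of mammals, had 24 and 12 reads and a ratio of 0.525 (0.239 to 1.09). None of the 5 early embryo members was higher and 3 were lower, against 68.8% and 9.68% of all members. The median log2 ratio of the list was -1.49, against 2.01 over all members.

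Outside mir-427 the lower member with the lowest ratio was miR-146b, of a family that in mammals damps NF-kB signalling in immune cells. It had 340.5 reads without injection and 101.5 with *Fry-MO*, at a ratio of 0.313 (0.248 to 0.392), and went from rank 9 to rank 46 among the *Xenopus*-named sequences. The listed miR-146a is a short form of 16 bases with 6.5 and 11.5 reads and a ratio of 1.86 (0.653 to 5.82). Its ratio was 5.94 times that of miR-146b (2.24 to 22.1). These bases are also the first 16 of miR-146b, so the sequence does not tell miR-146a from miR-146b. Reads of both were divided among listed sequences, so neither count is whole. The 6 listed sequences of this seed and family that carry a name of another species had 34.1 and 557.7 reads. With them the ratio of the sum went from 0.342 to 1.85 (1.63 to 2.10), on the other side of 1.

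The *Xenopus*-named miR-15/16 sequences had fewer reads together with *Fry-MO*, and 1 of them went the other way. The 5 with the shared seed had 316.5 raw reads together without injection and 215.5 with *Fry-MO*, at a ratio of 0.715 (0.598 to 0.853). MiR-15b had 95 and 38 reads and was lower, at 0.420 (0.280 to 0.618). MiR-16c had 26 and 11 reads and was lower too, at 0.444 (0.198 to 0.930). The 2 others, miR-16b with 131.5 and 68.5 reads and miR-15c with 60 and 34 reads, had ratios of 0.547 (0.402 to 0.738) and 0.595 (0.379 to 0.921), with intervals below 1. MiR-15a reached 10 reads in the *Fry-MO* library alone, so that it could hardly be other than high there. It had 4 and 64 reads, at a ratio of 16.8 (6.25 to 63.5). It thus made up 1.26% (0.345 to 3.20) of these reads without injection and 29.7% (23.7 to 36.3) with *Fry-MO*, and its ratio was 28.2 times that of miR-15c (9.12 to 113.5). Of the products with a p3 ending, mir-16a-p3 had 26 and 10 reads and was lower, at 0.404 (0.174 to 0.865), and mir-15c-p3 had 22 and 16 reads and a ratio of 0.763 (0.375 to 1.52). In both libraries mir-16a-p3 was the more read product of its precursor, as miR-16a, which is no member, had 5.5 and 8.5 reads. The 9 listed sequences of this seed and family that carry a name of another species had 204.8 and 3343.7 reads, and with them the ratio of the sum was 7.17 (6.54 to 7.87), on the other side of 1. The seed then had 521.3 and 3559.2 reads, beside the 4 and 64 of miR-15a. Its share of 29.7% thus holds for the *Xenopus*-named sequences alone. Over the 7 members of the list 1 was higher (14.3%, against 68.8% of all members) and 3 were lower (9.68% of all members were). The median log2 ratio was -0.87, against 2.01 over all members.

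A similar split was seen for mir-125. MiR-125b had 67 and 553 reads and was 8.66-fold higher (6.71 to 11.3), and miR-125a had 89 and 39 reads and a ratio of 0.460 (0.307 to 0.677). MiR-125b made up 42.9% (35.1 to 51.1) of the pair in the uninjected and 93.4% (91.1 to 95.3) in the *Fry-MO* library, and the ratios differed 18.8-fold (11.7 to 30.5). The more read of the *Xenopus*-named pair was thus miR-125a without injection and miR-125b with *Fry-MO*. When sequences of this seed with a name of another species are added to the nearer of the pair, miR-125a had 119 and 576.5 reads and miR-125b 68 and 564, and the exchange is gone. In the group of miR-25, miR-363-3p had 534 raw reads without injection, or 580.0 normalized counts against 253.1 with *Fry-MO*, and was lower, at 0.436 (0.371 to 0.511), and miR-25 had 76 and 249 reads and was 3.44-fold higher (2.65 to 4.51). MiR-92a lay between them with 113.5 and 90.5 reads and a ratio of 0.837 (0.628 to 1.11). The share of miR-25 in the group went from 10.5% (8.37 to 12.97) to 44.3% (40.2 to 48.6) and that of miR-363-3p from 73.8% (70.4 to 77.0) to 39.5% (35.5 to 43.7). Outside mir-427 scaling puts miR-25 at 0.673 (0.519 to 0.882), on the other side of 1, while its order relative to miR-363-3p, 7.88-fold (5.78 to 10.8), is the same under any scaling.

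The list of mir-17-92 type, a group of related polycistrons that promote proliferation in mammals, also holds the group of miR-25. Of its 12 members 3 were higher (25%, against 68.8% of all members) and 1 was lower (9.68% of all members were). The median log2 ratio was -0.25, against 2.01 over all members, and 10 of the 12 lost rank. With scaling outside mir-427 none of the 12 was higher and 9 were lower, with a median of -2.61. Of all members 25.8% were then higher and 33.3% lower, with a median of -0.34. MiR-17-5p had 12 and 41 reads and a ratio of 3.59 (1.85 to 7.497). MiR-20a-5p had 3 and 10.5 reads, and its ratio of 3.67 (0.959 to 20.6) held 1. MiR-93a, the most read of this seed, had 150.4 and 234.9 normalized counts and a ratio of 1.56 (1.25 to 1.95), and miR-20 had 15 and 12 reads and a ratio of 0.840 (0.359 to 1.92). These 4 had 168.5 and 269.5 reads together, and in neither library did miR-93a make up less than 76.4% of them. Shares of all 4 overlapped between the libraries, and with scaling outside mir-427 all 4 had ratios under 1, as had the 3 members of the group of miR-25. MiR-19b had 19 and 35 reads, with a ratio of 1.93 (1.08 to 3.58). The product mir-92a-1-p5 was read more often than miR-92a in both libraries, with 322.6 and 231.5 normalized counts, and had a ratio of 0.718 (0.597 to 0.861). Intervals of miR-18a-3p, miR-17-3p and miR-363, the minor arm of mir-363, held 1 at ratios of 0.763, 0.700 and 0.595.

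**Figure D2:**
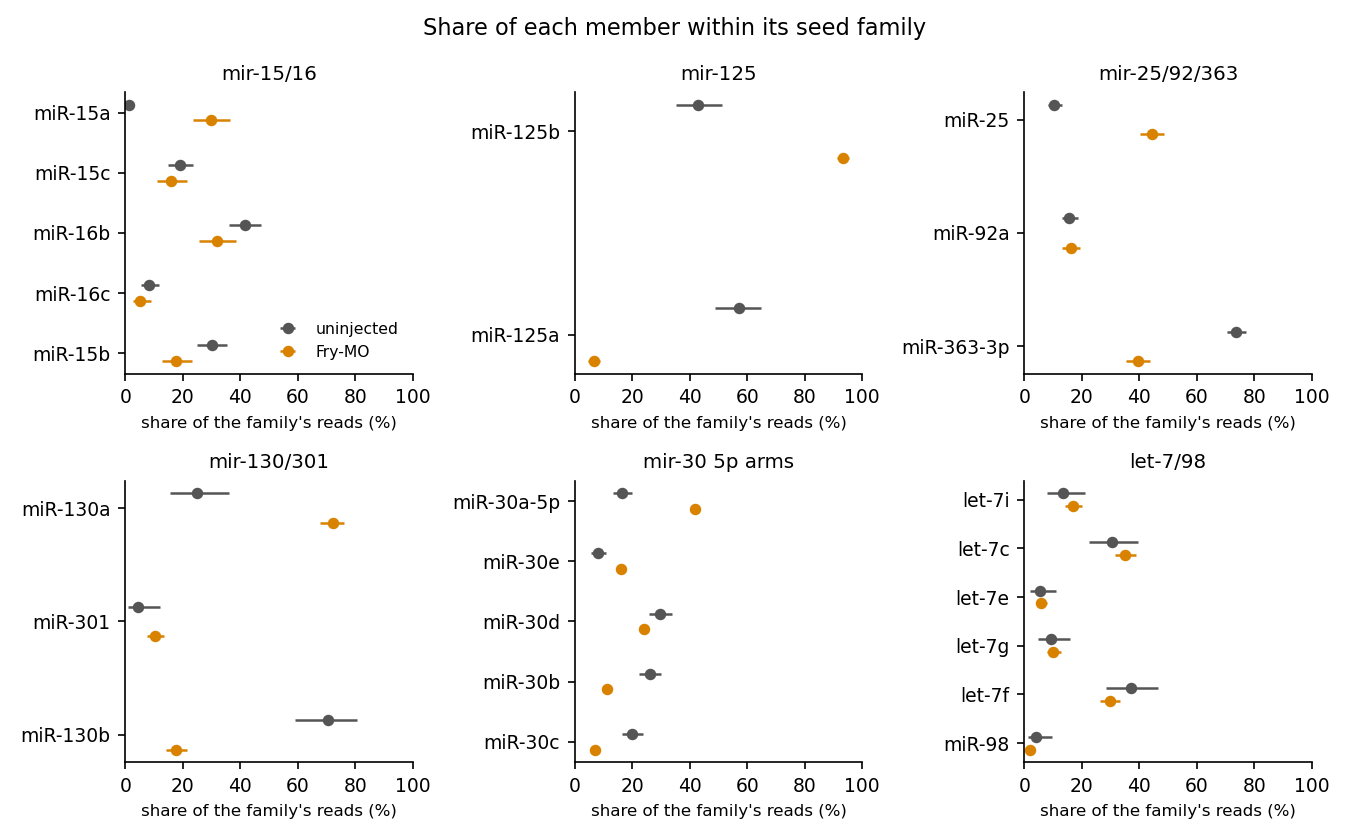
Share of each member within the Xenopus-named reads of its seed family (x axis, percent), in the uninjected library (grey) and the Fry-MO library (orange), with exact 95% binomial intervals as bars. In 5 of the 6 families a member has intervals that do not overlap between the libraries, as for miR-125b from 42.9% to 93.4%, while the let-7 shares overlap throughout. The 6 were picked by hand from the families compared, so this count is no rate over families. Of those not drawn, some had such a member, as miR-148a, and others had none, as the seed of miR-17.

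Other families were unevenly higher. Of the seed of miR-130, miR-130a had 19 and 327 reads and a ratio of 18.1 (11.4 to 30.4), whereas miR-130b had 54 and 80 reads and a ratio of 1.56 (1.09 to 2.24), an 11.6-fold difference between them (6.32 to 21.8). MiR-301 had 3.5 and 46.5 reads and was 13.9-fold higher (4.81 to 60.03). MiR-130a thus took the place of miR-130b as the main sequence of the seed, with 24.8% (15.7 to 36.04) of the reads without and 72.1% (67.7 to 76.2) with *Fry-MO*. The miR-30 family, which in the *Xenopus* pronephros is known to limit *lhx1*, was higher in all 6 members, against 68.8% of all members. Its median log2 ratio was 2.40, against 2.01 over all members. MiR-30a-3p reached 10 reads in the *Fry-MO* library alone. The 5 products of the 5p arm had 495.5 reads together without injection and 3491 with *Fry-MO*, 7.4-fold higher (6.73 to 8.14), or 1.45-fold (1.32 to 1.59) with scaling outside mir-427. MiR-30a-5p, with 81 and 1457 reads, was 18.9-fold higher (15.1 to 23.9), and miR-30e, with 40 and 556 reads, 14.6-fold (10.6 to 20.6). MiR-30d had 147 and 842 reads and a ratio of 6.01 (5.04 to 7.21). The ratios were smaller for miR-30b, with 140.1 and 443.6 normalized counts, at 3.17 (2.59 to 3.89), and for miR-30c, with 98.5 and 247 reads, at 2.63 (2.08 to 3.36). The share of miR-30a-5p in the family therefore went from 16.3% (13.2 to 19.9) to 41.7% (40.1 to 43.4), and its ratio was 7.17 times that of miR-30c (5.09 to 9.996). With scaling outside mir-427, miR-30a-5p and miR-30e remained higher by at least 2-fold, and miR-30b and miR-30c had ratios of 0.620 and 0.515.

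Smaller differences of the same kind were found in 3 further pairs. MiR-148a, whose family targets a DNA methyltransferase in mammals, had 1806 and 5738 reads and was 3.34-fold higher (3.16 to 3.52), while miR-148b had 175 and 261 reads and a ratio of 1.57 (1.29 to 1.91), a difference of 2.13-fold (1.74 to 2.61). MiR-181a-5p, known from lymphocytes of mammals, had 361.5 and 5492.5 reads and was 15.9-fold higher (14.3 to 17.8), and miR-181b, with 42.4 and 343.2 normalized counts, 8.10-fold (5.79 to 11.6). The pair of the *Hox* clusters, miR-10a with 108 and 522 reads and miR-10b with 214.5 and 657 reads, had ratios of 5.07 (4.12 to 6.30) and 3.22 (2.75 to 3.77). Over the 22 pairs of members of one family that were set side by side, the ratio of their ratios had an interval off 1 in 14 and held 1 in the other 8. As pairs were written with the member of the larger ratio mostly first, these intervals describe sizes and not a direction. The pairs were picked by hand, some as the highest against the lowest member of a family, and are not all possible pairs. The counts of 14 and 8 are therefore no rate of difference within families.

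In some families no member stood apart from the others beyond counting error. The 6 members of let-7, a family that marks differentiated tissue, were all higher, against 68.8% of all members, at ratios of 2.73 for miR-98 to 7.41 for let-7i. Let-7e and miR-98 reached 10 reads in the *Fry-MO* library alone. The family ratio was 5.86 (4.82 to 7.19), or 1.15 (0.942 to 1.41) with scaling outside mir-427. The most read were let-7c with 36.33 and 233.33 reads, at 6.74 (4.74 to 9.85), and let-7f with 44 and 197.33 reads, at 4.71 (3.38 to 6.68). Shares within the family overlapped between the libraries for each of the 6. MiR-100 and miR-99 had 330 and 1351, and 67 and 336 reads, and ratios of 4.30 (3.81 to 4.86) and 5.26 (4.04 to 6.95), and the ratio of these ratios, 1.22, had an interval of 0.913 to 1.66. The interval of the ratio of ratios also held 1 for miR-27b and miR-27a, for miR-23b and the *X. laevis*-named miR-23a, for miR-103 and miR-107, for miR-221 and miR-222 and for miR-200a and miR-200b. It was wide for miR-103 and miR-107 (0.127 to 3.69), miR-221 and miR-222 (0.730 to 9.73) and miR-200a and miR-200b (0.644 to 10.3). Such intervals do not show that these members moved alike, and miR-200a and miR-200b differ in their seeds. In the list that joins mir-125 with miR-100 and its relatives 5 of 6 members were higher (83.3%, against 68.8% of all members) and 1, miR-125a, lower. The median log2 ratio was 2.22, against 2.01 over all members.

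The mir-23/24/27 list had the highest median of the lists, a log2 ratio of 4.37 against 2.01 over all members. Its 6 members were all higher, against 68.8% of all members, though they include a shorter and a longer form of the same miR-23a sequence. MiR-27b had 189.33 and 4227.33 reads and a ratio of 23.4 (20.3 to 27.3), and with rank 5 was the most read of them in the *Fry-MO* library. MiR-24a-3p had 17 and 366 reads and a ratio of 22.6 (13.9 to 39.2), and miR-23b 12 and 255 reads and a ratio of 22.3 (12.5 to 43.7). These 3, which in vertebrates come from 1 cluster, had intervals that overlap. MiR-27a was 19.2-fold higher (11 to 36.9) and the *X. laevis*-named miR-23a 15.7-fold (10.3 to 25.03). The *X. tropicalis*-named miR-23a was at 0 without injection and had 10 reads with *Fry-MO*, so that it could hardly be other than high there. It was 3.50-fold higher with the uninjected library set to 3 reads, and the lower bound of its interval was 2.35. Its sequence is that of the *X. laevis*-named miR-23a with a longer end, at 24 bases against 21. With scaling outside mir-427, 5 of the 6 were still at least 2-fold higher, against 25.8% of all members. For the last one, with no read without injection, the value was 0.685 with 3 reads set there and the lower bound 0.461. This does not place it on either side of 1.

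**Figure D3:**
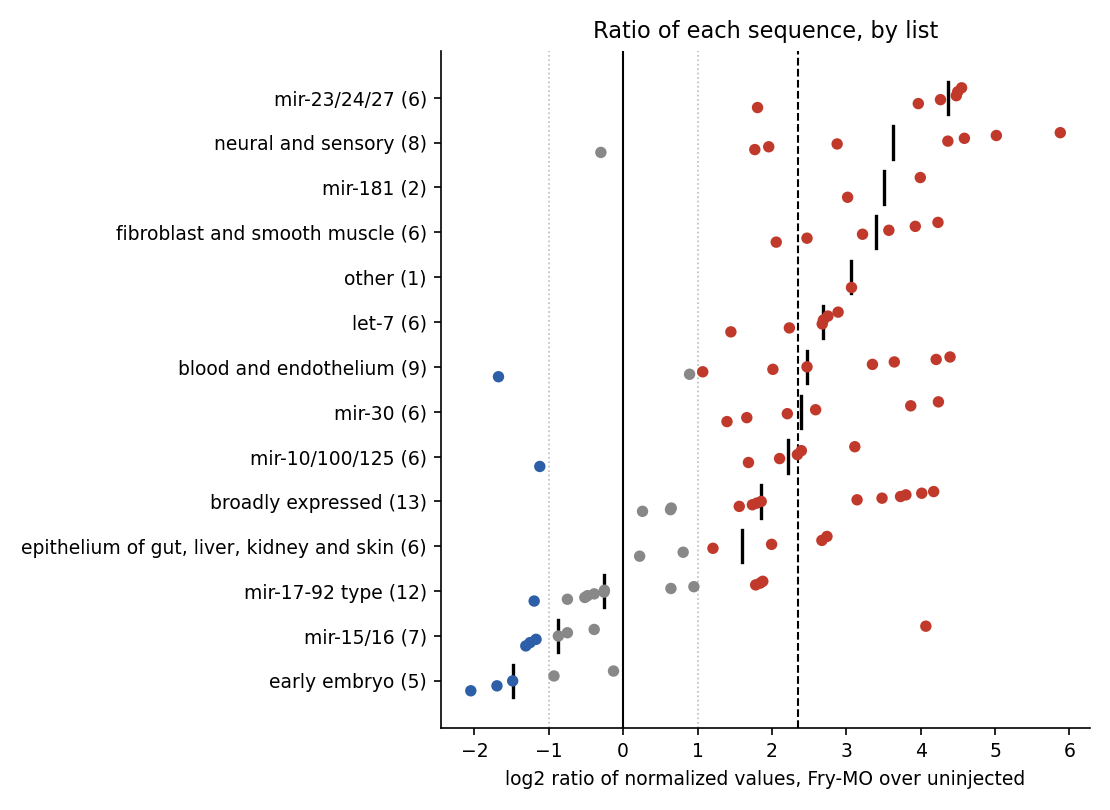
Log2 ratio of normalized values (x axis, Fry-MO over uninjected) of each of the 93 sequences, in rows by list with the number of members, coloured red for higher, grey for in between and blue for lower, with the median of each list as a black bar. The solid line is no difference with the authors' normalization, the dashed line at 2.35 no difference with scaling outside mir-427, and the dotted lines mark 2-fold. Early embryo, mir-15/16 and mir-17-92 type are the 3 lists with a median under 0, and mir-23/24/27 is farthest to the right.

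Neural and sensory miRNAs were next, with 7 of 8 members higher (87.5%, against 68.8% of all members) and a median log2 ratio of 3.62. With scaling outside mir-427, 4 of the 8 were higher and 1 lower, against 25.8% and 33.3% of all members. The products of the mir-183 cluster, known from hair cells and photoreceptors, had few reads without injection. MiR-183 had 47 and 1077 reads and a ratio of 24.1 (17.96 to 32.9), miR-182-5p 14 and 275 reads and a ratio of 20.6 (12.1 to 38.2), and miR-96 1 and 56 reads and a ratio of 58.8 (10.1 to 2363). Against miR-183 the ratio of miR-182-5p was 0.857 (0.456 to 1.71) and that of miR-96 2.44 (0.401 to 100.3), intervals that hold 1. MiR-338, known from oligodendrocytes of mammals, had 11 and 339.5 reads and was 32.4-fold higher (17.9 to 65.5). MiR-9a-5p, of neural progenitors, was rare in both libraries, as it had 3.33 and 12.3 reads and a ratio of 3.88 (1.10 to 19.3), and the sequence of 15 bases listed as mir-124-p3 had 8 and 26 reads and a ratio of 3.41 (1.5 to 8.72). With the seed CAGGAGT the latter is not the mature miR-124 of neurons. MiR-138 was at 0 in the uninjected library, with 21 reads in the *Fry-MO* library. It was 7.35-fold higher with the uninjected library set to 3 reads, and the lower bound of its interval was 5.47. MiR-128, a miRNA of the brain, had 31 and 24 reads, and its ratio of 0.813 (0.456 to 1.43) held 1.

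Of the 9 members of blood and endothelium 7 were higher (77.8%, against 68.8% of all members) and 1, miR-146b, was lower. The median log2 ratio was 2.47, against 2.01 over all members. MiR-221, miR-222 and miR-146a reached 10 reads in the *Fry-MO* library alone. With scaling outside mir-427, 3 of the 9 were higher and 3 lower, against 25.8% and 33.3% of all members. MiR-142, which marks blood cells of all lineages, had 156 and 2748 reads and a ratio of 18.5 (15.7 to 21.9). The erythroid pair miR-451, with 53 and 632 reads, and miR-144, with 11.95 and 122.01 normalized counts, had ratios of 12.5 (9.45 to 16.9) and 10.2 (5.48 to 21.1), and the first was 1.23 times the other (0.559 to 2.47). The endothelial miR-126 is described with the arms. MiR-221 and miR-222, which limit the receptor KIT in mammals, had 7 and 37, and 9 and 18 reads, and ratios of 5.55 (2.44 to 14.8) and 2.10 (0.896 to 5.31).

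Each of the 6 fibroblast and smooth muscle members was higher, against 68.8% of all members, with a median log2 ratio of 3.40. Of these, miR-145 and miR-140 reached 10 reads in the *Fry-MO* library alone, so that they could hardly be other than high there. With scaling outside mir-427, 3 of the 6 were higher and none lower, against 25.8% and 33.3% of all members. The 3 were miR-143, miR-145 and miR-140, and the interval of miR-140 then held 1 (0.732 to 11.8). The smooth muscle pair miR-143, with 46 and 824 reads, and miR-145, with 4 and 58 reads, had ratios of 18.8 (14.0 to 25.9) and 15.2 (5.64 to 57.7). The cartilage miRNA miR-140 had 3 and 34 reads and a ratio of 11.9 (3.74 to 60.5). MiR-214, from the precursor transcript of miR-199a in mesenchyme, had 14 and 74 reads and a ratio of 5.55 (3.11 to 10.6).

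In the epithelial list the share of higher members was 66.7%, against 68.8% of all members, and the median log2 ratio was 1.6, against 2.01. Of its 6 members 4 were higher and none was lower. MiR-192, miR-200b and miR-205 reached 10 reads in the *Fry-MO* library alone. With scaling outside mir-427 none was higher and 3 were lower, against 25.8% and 33.3% of all members. The higher ones were miR-204, of eye and kidney epithelium, with 35.5 and 226 reads at 6.68 (4.68 to 9.81), miR-200a and miR-200b, which restrain the Zeb repressors, with 14 and 85, and 5 and 11 reads at 6.37 (3.60 to 12.2) and 2.31 (0.740 to 8.48), and miR-192, with 5 and 19 reads at 3.99 (1.44 to 13.7). The liver miRNA miR-122, with 12 and 20 reads, had a ratio of 1.75 (0.815 to 3.93). MiR-205, of the epidermis, had 9 and 10 reads, which puts it just inside the minimum, and a ratio of 1.17 (0.426 to 3.24).

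Of the 13 broadly expressed members 10 were higher (76.9%, against 68.8% of all members) and none was lower. The median log2 ratio was 1.86, against 2.01 over all members. MiR-301, miR-101a and miR-107 reached 10 reads in the *Fry-MO* library alone. With scaling outside mir-427, 5 of the 13 were higher and 3 lower, against 25.8% and 33.3% of all members. MiR-22-3p, the third most read member without injection, had 1900 and 5342 reads and a ratio of 2.95 (2.8 to 3.11). MiR-191 had 211.8 and 3424 normalized counts and a ratio of 16.2 (14.0 to 18.8), and miR-425-5p from the same cluster had 11 and 117 reads and a ratio of 11.2 (6.02 to 22.98), which is 0.691 times that of miR-191 (0.364 to 1.45). MiR-26 was 13.3-fold higher (11.2 to 15.9), miR-101a, which targets *Ezh2* in mammals, 8.85-fold (2.94 to 38.9), miR-107 3.62-fold (1.01 to 18.1) and miR-103 3.48-fold (1.83 to 7.08). The remaining member, miR-365, fell in no list and had 2 and 16 reads. Muscle was the list without any member, as none of its 3 *Xenopus*-named sequences reached 10 reads.

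Markers of differentiated cell types, summed over every *Xenopus*-named sequence of the marker list and without a minimum of reads, are given beside these ratios. The 2 erythroid markers had 64 reads without injection and 739 with *Fry-MO*, 12.1-fold higher (9.38 to 15.9). The 4 other blood markers had 161 and 2760 reads, 18-fold higher (15.3 to 21.2), but miR-142 held 156 and 2748 of these and the 3 others 5 and 12 together, with 1 of them at 0 in the uninjected library. Endothelial markers had 1272 reads with *Fry-MO*, at 9.75 (8.17 to 11.7), and smooth muscle and fibroblast markers 761 and 4412 reads, at 6.09 (5.63 to 6.58). The 2 arms of mir-199a held 695.5 of these 761 reads and 3450.5 of the 4412, so this sum is mostly that of 1 precursor. The 3 muscle markers had 1 and 10 reads, the 4 neural ones 12.7 and 39, and the liver marker 12 and 20. Without mir-124-p3 the neural sum was 4.67 and 13 reads. With scaling outside mir-427 the erythroid sum was 2.37, the sum of other blood markers 3.52, the endothelial one 1.91 and the fibroblast one 1.19 times that of the uninjected library, and the neural sum 0.633 times. Differentiated blood, vessels and smooth muscle form after gastrulation in *Xenopus*. The part of these markers in the results was not tested.

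Products of 1 precursor moved unequally in several cases. Of 17 precursors with a member and at least 2 *Xenopus*-named products, 8 had at least 2 members, and in 4 of these 8 the shares of the arms had intervals that did not overlap. The endothelial precursor mir-126 turned over its main arm. MiR-126-5p had 46 and 922 reads and a ratio of 21.04 (15.6 to 28.9), and miR-126-3p 91 and 350 reads and a ratio of 4.04 (3.20 to 5.14), so that the 5p share went from 33.6% (25.7 to 42.1) to 72.5% (69.9 to 74.9). In mir-17 the 5p share went from 44.4% (25.5 to 64.7) to 80.4% (66.9 to 90.2), with 15 and 10 reads in miR-17-3p. In mir-199a it went the other way, from 79.7% (76.5 to 82.7) to 63.8% (62.1 to 65.4). MiR-199a-5p had 554.5 and 2200 reads and a ratio of 4.16 (3.79 to 4.58), and miR-199a-3p 153.2 and 1426 normalized counts and a ratio of 9.31 (7.82 to 11.2). The main product of mir-427 made up 83.3% (82.9 to 83.6) and 85.3% (84.8 to 85.9) of its precursor. In mir-30a the minor miR-30a-3p, with 5 and 22 reads, had a ratio of 4.62 (1.71 to 15.6), and the ratio of miR-30a-5p was 4.09 times as large (1.18 to 11.4), although the shares overlapped. Arms of mir-130b, mir-15c and mir-363 kept shares that overlapped, with mir-130b-p5 at 78 and 89 reads and a ratio of 1.2 (0.874 to 1.64) and miR-363 at 30 and 17 reads.

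**Figure D4:**
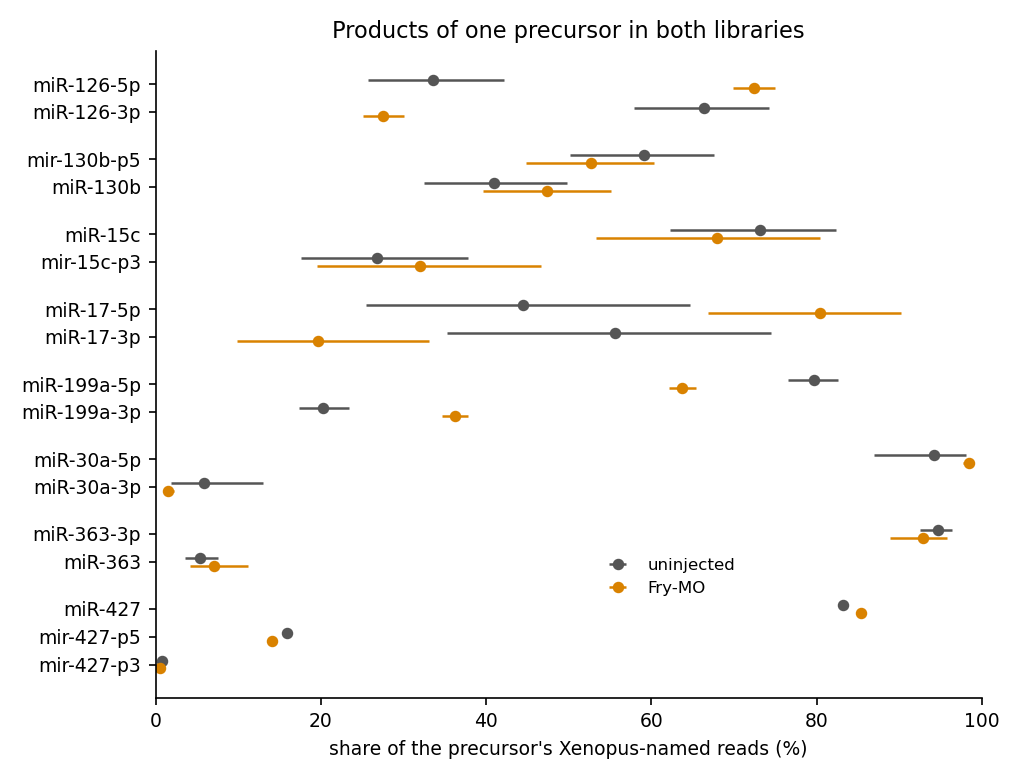
Share of each product in the Xenopus-named reads of its precursor (x axis, percent) for the 8 precursors with at least 2 members, in the uninjected library (grey) and the Fry-MO library (orange), with exact 95% binomial intervals as bars. The arms of mir-126 exchange places, those of mir-17 and mir-199a move by more than their intervals, and those of mir-130b, mir-15c and mir-363 overlap.

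By their names, the 9 members of a 5p arm were all higher, and of the 8 of a 3p arm 5 were higher (62.5%) and 1 was lower. Over all members 68.8% were higher. Most members, 68, have no arm in their name, and 49 of these were higher (72.1%) and 5 lower. The counts thus describe names and do not compare the arms. Of the 8 members with a p5 or p3 ending, given to arms without an entry of their own, 1 was higher and 3 were lower, with a median log2 ratio of -0.70. Of the 14 members with an *X. laevis* name 2 were higher and 3 were lower, with a median log2 ratio of -0.32, and of the 79 with an *X. tropicalis* name 62 were higher and 6 lower, with a median of 2.34. The *X. laevis* names include the mir-427 products and 5 sequences of mir-17-92 type, so name and list cannot be told apart. Lengths were alike, with a median of 22 bases in the higher, lower and in-between members, and the median GC content was 42.9% in the higher and in the lower members. Lower members had a median of 340.5 reads without injection, against 16.5 for the higher members, but these reads are also the denominator of the ratio. Of the higher members, 20 had reached 10 reads in the *Fry-MO* library alone. Of the 14 members with at least 1000 reads over both libraries 12 were higher and 2 lower, and of the 40 with under 100 reads 25 were higher and 2 lower.

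Ranks among the 175 *Xenopus*-named sequences describe the same reads without any scaling. Of the 93 members 54 gained and 38 lost rank, and miR-427 stayed first. All 54 that gained were among the 64 higher members, the 10 other higher members lost rank, and 20 of the 21 members with a ratio under 1 lost rank. As ranks and ratios are taken from the same reads, this agreement is no separate support. Of the 20 most read sequences 14 were shared by the libraries. The gain was largest, among members with at least 50 reads, for miR-96, by 72 to rank 57, and miR-338, from 69 to 27. It was followed by miR-301, from 96 to 58, and by miR-15a and miR-145, both from 91.5, to 55 and 56. MiR-96, miR-301, miR-15a and miR-145 had reached 10 reads in the *Fry-MO* library alone. MiR-23b went from 65 to 33, miR-24a-3p from 55 to 24 and miR-182-5p from 60 to 31. The largest losses among members with at least 50 reads were those of mir-427-p3, from 7 to 49.5, of miR-146b, and of miR-15b, from 26 to 63. Of the members with fewer reads, mir-16a-p3 lost 42 ranks and miR-16c lost 38. MiR-125a went from 28 to 61.5, miR-363-3p from 6 to 39, miR-15c from 34 to 66.5, miR-16b from 21 to 53 and mir-92a-1-p5 from 11 to 41. Near the top, miR-148a went from 4 to 2, miR-181a-5p from 8 to 3, miR-191 from 13 to 6 and miR-142 from 16 to 7. The 5 most read sequences outside mir-427 in the *Fry-MO* library, miR-148a, miR-181a-5p, miR-22-3p, miR-27b and miR-191, held 37.1% (36.7 to 37.4) of its *Xenopus*-named reads, against 7.92% (7.70 to 8.15) in the uninjected library. Choosing them by their reads with *Fry-MO* favours a larger share there. The share also depends on the mir-427 products, which held 82.1% of the total without injection and 23.9% with *Fry-MO*.

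**Figure D5:**
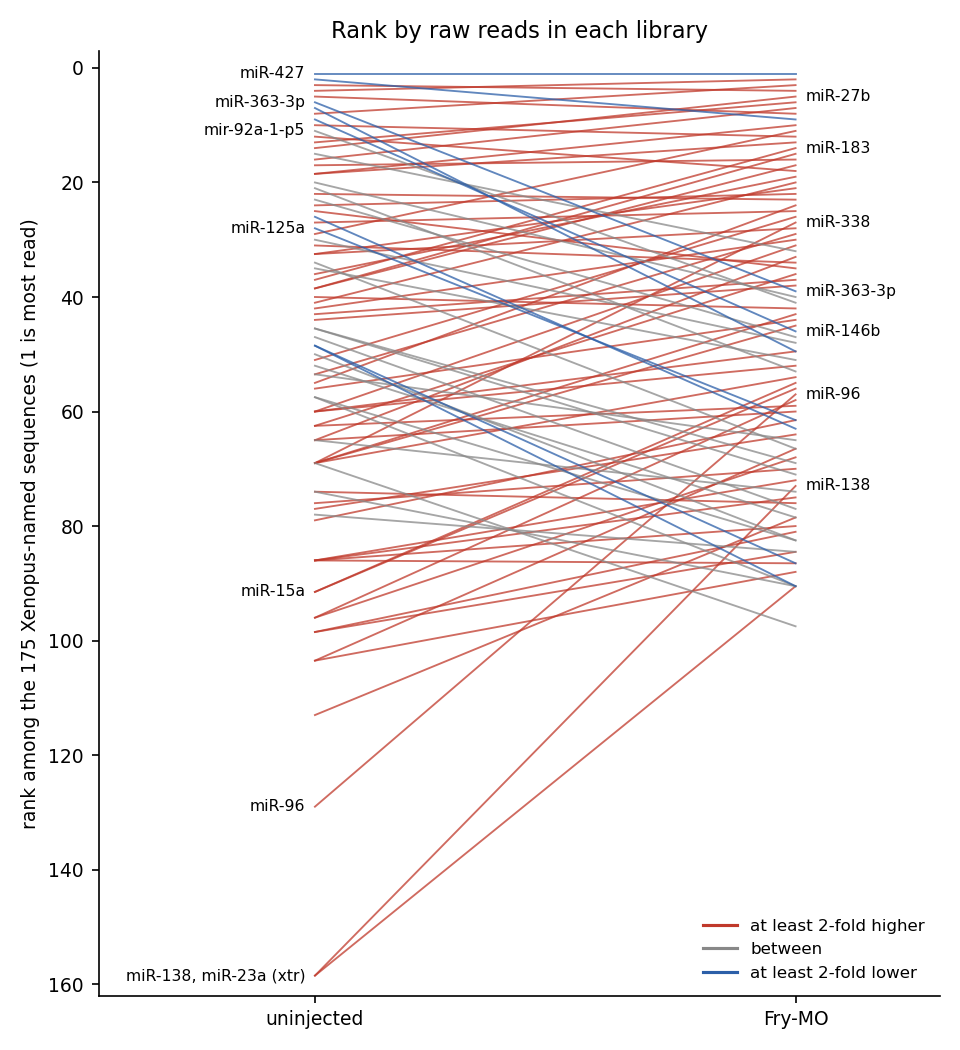
Rank by raw reads among the 175 Xenopus-named sequences (y axis, 1 is most read) in the uninjected library (left) and in the Fry-MO library (right), with 1 line for each of the 93 members, coloured by call. Red lines mostly run upward and blue ones downward, as for miR-96, which gains 72, and for miR-363-3p, which goes from 6 to 39, while miR-427 stays at rank 1.

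A smaller set of members was at least 2-fold higher under both scalings. As the second divides every ratio by 5.11, this is a stricter cut on the same values and no separate support. For 22 the ratio was at least 2 and its interval above 1 with the authors' values and with scaling outside mir-427. They are the 5 of mir-23/24/27 named above, miR-96, miR-183, miR-182-5p and miR-338, miR-142, miR-451 and miR-126-5p, miR-143 and miR-145, miR-130a, miR-191, miR-425-5p and miR-26, miR-30a-5p and miR-30e, miR-181a-5p, and miR-15a. MiR-301 and miR-140 were also at least 2-fold higher under both, but their intervals then held 1. Together the 24 had 1491.17 reads in the uninjected and 25237.2 in the *Fry-MO* library, a difference that follows from how they were chosen. Of the 24, 5 reached 10 reads in the *Fry-MO* library alone.

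Sequences with a name of another species were looked at for the families that were split, a choice made after the values were seen. A name gives the species of the matched entry and not the origin of the read. In 4 cases a sequence with the seed and family number of a member whose ratio was under 1, but at least 1 edit away from it, was at least 2-fold higher itself. The zebrafish-named miR-16b, 1 edit in 22 bases from the *Xenopus* miR-16b with its ratio of 0.547, had 167 and 2899.5 reads and a ratio of 18.2 (15.6 to 21.4), and a second zebrafish-named form 28 and 292.5 reads and a ratio of 10.97 (7.43 to 16.8). A miR-125a-5p named after the Chinese hamster, 1 edit from miR-125a, had 26 and 537.5 reads and a ratio of 21.7 (14.6 to 33.5). A monkey-named miR-15b, 2 edits in 21 bases from miR-15b, had 5 and 147 reads and a ratio of 30.9 (12.9 to 96.5). Of 12 such sequences of any family with at least 50 reads over both libraries and at least 1 edit from the nearest member, 8 were at least 2-fold higher and 1 was at least 2-fold lower. The lower one was a zebrafish-named miR-10b at 0.462 (0.305 to 0.688), 1 edit from miR-10b with its ratio of 3.22. Another zebrafish-named miR-10b, 1 edit from miR-10a (5.07), was at 0.886 (0.511 to 1.53). A catfish-named miR-30e, 2 edits from miR-30a-3p (4.62), was at 0.786 (0.641 to 0.963). Among all 168 sequences with a name of another species and at least 10 reads in either library, 115 were higher and 27 lower. All listed sequences with a name of another species made up 4.04% of listed reads without injection and 21.4% with *Fry-MO*. Their part in the split of the families was not tested.

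At the border of the minimum, miR-205 with 9 and 10 reads and the *X. tropicalis*-named miR-23a with 0 and 10 were the members just inside, followed by miR-20a-5p and miR-18a-3p. Just outside lay miR-10c with 9.5 and 7 reads, miR-130c with 9 and 5, mir-212-p5 with 2 and 9 and miR-34a with 1 and 9.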

How the data were processed

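Small RNA of 3 libraries was sequenced as reads of 40 bases, and the uninjected and *Fry-MO* libraries are compared here. The authors' processing (SCS 2.8, RTA 1.8.70, ACGT101-miR 4.2) cut the adapter, kept 15 to 32 bases and mapped reads to miRBase and chordate genomes (release and builds: not given in the sources used here). Deposited raw reads are expected counts per sequence, with a read divided among those that it fits (488 sequences are not whole). The authors also deposited a normalized signal, here called normalized counts, which is the raw value over a library size parameter of 0.921 (uninjected) or 0.877 (*Fry-MO*), with 0 written as 0.001. No source used here says how they set that parameter. A deposited summary gives 3157393 and 2125966 mappable reads. Of the table, 2 lines were not analysed here.

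Ratios are those of the authors' normalized values, and intervals of ratios and shares are exact (Clopper-Pearson) from raw reads at 95%, exact only for whole reads. The interval of a ratio of ratios is the conditional exact 95% interval of an odds ratio, from reads rounded to whole numbers. The ratio of ratios itself used unrounded reads. For a ratio, a library at 0 was set to 3 reads (3.26 and 3.42 normalized), while the interval kept the 0. The intervals cover counting error only, and PCR duplicates are not removed by molecular identifiers. Ranks, arms and family shares used raw reads, ties taking their mean rank. The members and the lists (early embryo, mir-15/16, mir-17-92 type, mir-30, let-7, mir-10/100/125, mir-23/24/27, mir-181, muscle, neural and sensory, blood and endothelium, fibroblast and smooth muscle, epithelium, broadly expressed) and the cell type markers were chosen with earlier results of these data known. Members given in full (67) are those at least 2-fold lower, the 8 with the largest ratio, gain and loss of rank among those with at least 50 reads over both libraries, the 8 most read of each library, precursors with 2 member products, those that change sides of 1 with scaling outside mir-427, and the 2 most read of each list. Any other member, and sequences with names of other species, were picked with their values in view.

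Alternatives were scaling to the reads outside mir-427, to all *Xenopus*-named, all listed or the mappable reads (the last added after seeing the data), TMM (edgeR 4.0.16) or median of ratios (DESeq2 1.42.0) on rounded raw reads, from which scaling factors alone were taken, other minimums of reads, folds of 1.5 and 4, a zero set to 1 read, whole reads alone, summed names, and names of other species added to a seed (also after seeing the data). Python 3.11.15, pandas 2.3.3, numpy 2.4.6, scipy 1.17.1, matplotlib 3.10.9 and R 4.3.3 were used, and the ratios and intervals were checked on simulated data.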

Additional observations from a re-analysis of the deposited data

Results flagged for a closer look

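Outside the *Xenopus*-named sequences, the 3 most read entries with the name of another species and at least 50 reads over both libraries whose counting interval lay above that of no difference were the mouse-named miR-486-5p, the horse-named miR-99b and the zebrafish-named miR-16b. MiR-486-5p had 201 reads without injection and 3116 with *Fry-MO*, at a ratio of 16.3 (14.1 to 18.9). MiR-99b had 3057 reads with *Fry-MO* and a ratio of 16.5 (14.2 to 19.1), against 5.26 for the *Xenopus*-named miR-99, from which it is 4 edits away in 21 bases. MiR-16b had a ratio of 18.2 (15.6 to 21.4). None of them is a member. No group had enough libraries to look for a library that stands apart.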

How the results depend on the processing

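Scaling changed the counts of members. With scaling to the reads outside mir-427, 24 members were higher and 31 lower, the median log2 ratio was -0.34, and 27 intervals lay above and 36 below 1. With TMM 28 were higher and 30 lower, the median was -0.072 and 32 intervals lay above and 33 below 1, and with the median of ratios 29 were higher and 30 lower, the median was -0.057 and again 32 intervals lay above and 33 below 1. These 3 scalings shifted every log2 ratio by -2.35, -2.09 and -2.07, and by their construction they set the typical member, or its total, to no difference. Scaling to all *Xenopus*-named or to all listed reads left the counts and the median within 1.5 times of those reported. With the mappable reads 3 members were lower, mir-427-p3, mir-427-p5 and miR-146b, and 7 intervals lay below 1. No longer called lower were miR-427 (0.505), mir-16a-p3 (0.571), miR-15b (0.594), miR-363-3p (0.617), miR-16c (0.628) and miR-125a (0.651). With at least 50 reads the median was 2.67, and with at least 1 read, leaving out 24 sequences at 0 in a library and at 3 reads or fewer in the other, it was 1.68 and 13 sequences were lower. At a fold of 4 a single member (1), mir-427-p3, was lower. With all listed rows as the total, mir-427 products held 34.5% and 14.2%. A zero set to 1 read, whole reads alone and summed names moved neither the counts nor the median by over 1.5 times.

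Members called higher whose ratio fell below 1 are given for scaling outside mir-427, TMM and median of ratios in this order. These were miR-30b (0.620, 0.746, 0.754), miR-22-3p (0.578, 0.696, 0.703), miR-199a-5p (0.815, 0.981, 0.992), miR-148a (0.653, 0.786, 0.794), miR-10b (0.629, 0.758, 0.766), mir-124-p3 (0.668, 0.804, 0.812), miR-9a-5p (0.760, 0.915, 0.925), miR-98 (0.534, 0.643, 0.650), miR-30c (0.515, 0.620, 0.627), miR-25 (0.673, 0.810, 0.819), miR-222 (0.411, 0.495, 0.5), miR-20a-5p (0.719, 0.866, 0.875), miR-200b (0.452, 0.544, 0.550), miR-192 (0.781, 0.94, 0.95), miR-17-5p (0.702, 0.845, 0.854), miR-126-3p (0.790, 0.951, 0.962), miR-107 (0.709, 0.853, 0.863) and miR-103 (0.680, 0.819, 0.828). Only with scaling outside mir-427 did miR-10a (0.993), miR-100 (0.841), miR-30a-3p (0.904) and let-7f (0.921) do so. For the *X. tropicalis*-named miR-23a, with no read without injection, the values (0.685, 0.825, 0.833) rest on the 3 reads set there and place it on neither side of 1. Adding sequences with a name of another species, chosen after seeing the data, took the ratio of the miR-15/16 seed from 0.715 to 7.17. It took that of the mir-125 seed from 3.98 to 6.402 and that of the mir-146 seed from 0.342 to 1.85. Ranking among all listed sequences turned none of the 62 changes of rank of at least 10.

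No paired analysis was possible because each condition has 1 library. Depth limits the members with few reads, 40 of which had under 100 over both libraries, and miR-96, with 1 read without injection, has an interval from 10.1 to 2363. Reads divided among sequences with near-identical copies were not redistributed.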
